A study of Mus musculus with 8 samples.

Results

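The natriuretic peptide system of the mouse left ventricle was followed through 9 genes, taken by their gene symbols from a table of 49671 genes: the peptide genes Nppa, Nppb and Nppc, the receptor genes Npr1, Npr2 and Npr3, the peptide-processing proteases Corin and Furin, and the peptide-degrading protease Mme. All 9 symbols were found, each at 1 gene identifier, and all 9 passed the filter for testing (2 or more libraries at 1 unit or above), Nppc only through 2 TAC libraries. Left ventricles of C57BL/6N males, aged 8 weeks when the experiment began, gave the polyA RNA. It was taken 4 weeks after transverse aortic constriction (TAC), in which a tie around the aortic arch puts the ventricle under pressure overload, or after a sham operation. The mice ate SFA-EAA, a diet with free essential amino acids in place of 93.5% of the casein, or SFA, the diet it was set against, which the submitters call low in fat. The 4 groups were TAC on SFA-EAA, sham on SFA-EAA, TAC on SFA and sham on SFA, with 2 libraries each and 8 in all, and no allele or drug was named for any of them. Whether a group's 2 libraries are separate mice, pools or repeats of 1 mouse is not labelled, so the p-values measure only the spread between libraries, which may be technical.

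Cardiac myocytes store and secrete natriuretic peptides, hormones that lower blood pressure and promote salt loss. Nppa and Nppb encode the precursors of atrial natriuretic peptide (ANP) and brain natriuretic peptide (BNP), and Nppc encodes C-type natriuretic peptide (CNP), a product mainly of the endothelium. Corin and furin cut the precursors to the active hormones. ANP and BNP act through the receptor encoded by Npr1 and CNP through that encoded by Npr2, both of which make cyclic GMP (cGMP). The receptor encoded by Npr3 mainly takes the peptides up for degradation, and neprilysin, encoded by Mme, cleaves them outside the cell. In the adult ventricle Nppa is normally low compared with the atrium, and its return under load is a commonly used sign of hypertrophy.

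The deposited values were normalized by the authors with edgeR, per the submitters' processing notes, and are given here as normalized units. They sum to between 5136441 and 6298743 in a library, with 14202 to 15844 genes at 1 or more. They do not allow whole reads to be recovered, so the sequencing depth behind each value is unknown and no counting interval is given. Values of GC-rich genes ran higher in all 4 SFA libraries and in replicate 1 of TAC on SFA-EAA than in the other 3 SFA-EAA libraries. The rank correlation of a gene's deviation with its GC content, across 8032 genes that are not independent, was 0.36 to 0.56 in those 5 libraries and -0.76 to -0.45 in the other 3. Several results below are therefore also given after a correction for GC content. Where only the result as deposited is given, its difference and adjusted p can also change with the correction. Replicate 2 of TAC on SFA and replicate 1 of sham on SFA stood apart in atrial genes. Myl7, an atrial myosin light chain, was at 322 normalized units in the TAC library and 621 in the sham library, against 1.28 to 43.0 in the other 6. The 10 genes marking the ventricular myocyte summed to between 263701 and 363968 in a library and none was at 0, with Hey2 the lowest of them at 6.49 to 25.1.

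Nppa and Nppb lie side by side on chromosome 4 in the same orientation, with 13516 bases between the end of Nppb and the start of Nppa (GRCm38). Nppa (ENSMUSG00000041616) spans 148000722 to 148002079 and Nppb (ENSMUSG00000029019) spans 147985788 to 147987205, both on the plus strand. The 250 bases before each RefSeq start (GRCm38.p6) are shown because these are the 2 genes whose RNA rose together after TAC. Capitals mark matches on either strand to the binding motifs of factors known to act in the heart.
Nppa promoter, chr4:148000472-148000721, plus strand: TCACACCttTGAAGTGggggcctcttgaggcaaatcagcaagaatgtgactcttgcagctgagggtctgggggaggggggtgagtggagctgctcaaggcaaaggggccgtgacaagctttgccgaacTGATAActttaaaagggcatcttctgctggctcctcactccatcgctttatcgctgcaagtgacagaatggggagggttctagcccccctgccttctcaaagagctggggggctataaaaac
Nppb promoter, chr4:147985650-147985899, plus strand: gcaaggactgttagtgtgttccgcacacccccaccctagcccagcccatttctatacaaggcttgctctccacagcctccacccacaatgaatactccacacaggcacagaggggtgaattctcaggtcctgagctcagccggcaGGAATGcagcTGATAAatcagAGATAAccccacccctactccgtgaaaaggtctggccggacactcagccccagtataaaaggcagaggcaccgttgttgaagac

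The search covered both strands. GATA factors were searched with AGATAA and AGATAG, and with T as the first base of either. The NKX2-5 motif was TNAAGTG and the T-box motif was GGTGTGA. The MCAT element, which TEAD factors bind, was searched as CATTCC and the AP-1 site as TGANTCA. The CArG box, that of serum response factor, was searched only as CCWWWWWWGG, where W is A or T. The Nppa window held 1 GATA match beginning 122 bases before the start, 1 NKX2-5 match at 241 bases and 1 T-box match on the minus strand at 250 bases. In the Nppb window there were 2 GATA matches, at 95 and 84 bases before the RefSeq start, and 1 MCAT match on the minus strand at 105 bases. These matches do not overlap each other. The RefSeq start of Nppb lies 112 bases inside the gene span of the deposited table, so its window begins before that span and ends within it. Neither window held an exact match to the AP-1 or CArG box pattern. Sites that depart from a pattern by a base were not searched, so such sites may be present. Among 32851 RefSeq promoter windows of the same length, 26.5% held a GATA match, 10.1% NKX2-5, 12.6% MCAT, 3.33% T-box, 6.75% AP-1 and 1.47% a CArG box. A match describes the letters of the window and not occupancy by a factor.

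Nppa, the ANP precursor gene, was higher in the TAC hearts than in the sham hearts of each diet. On the SFA-EAA diet, its level was 4437 and 3343 normalized units in the TAC hearts, against 1025 and 1046 in the sham hearts. On SFA, its level was 10346 and 20406 in the TAC hearts, against 1299.5 and 1013 in the sham hearts. All 4 TAC libraries stood above all 4 sham libraries, both TAC libraries on SFA-EAA stood below both on SFA, and the sham libraries of the 2 diets overlapped. Among all genes of a library ordered by normalized value, which is not per length, Nppa took place 121 and 154 in the TAC hearts on SFA-EAA and 563 and 550 in the sham hearts on that diet. It took place 41 and 24 in the TAC hearts on SFA and 432 and 575 in the sham hearts on SFA.

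Nppb, the BNP precursor gene, was high in the same 4 libraries, with less difference between the diets. On SFA-EAA, the TAC hearts had 2771 and 4019 normalized units and the sham hearts 1122 and 942. On SFA, the TAC hearts had 4184 and 4697 and the sham hearts 1022 and 1101. The TAC and sham libraries did not overlap on either diet, and the sham hearts of both diets lay in 1 narrow range.

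**Figure D1:**
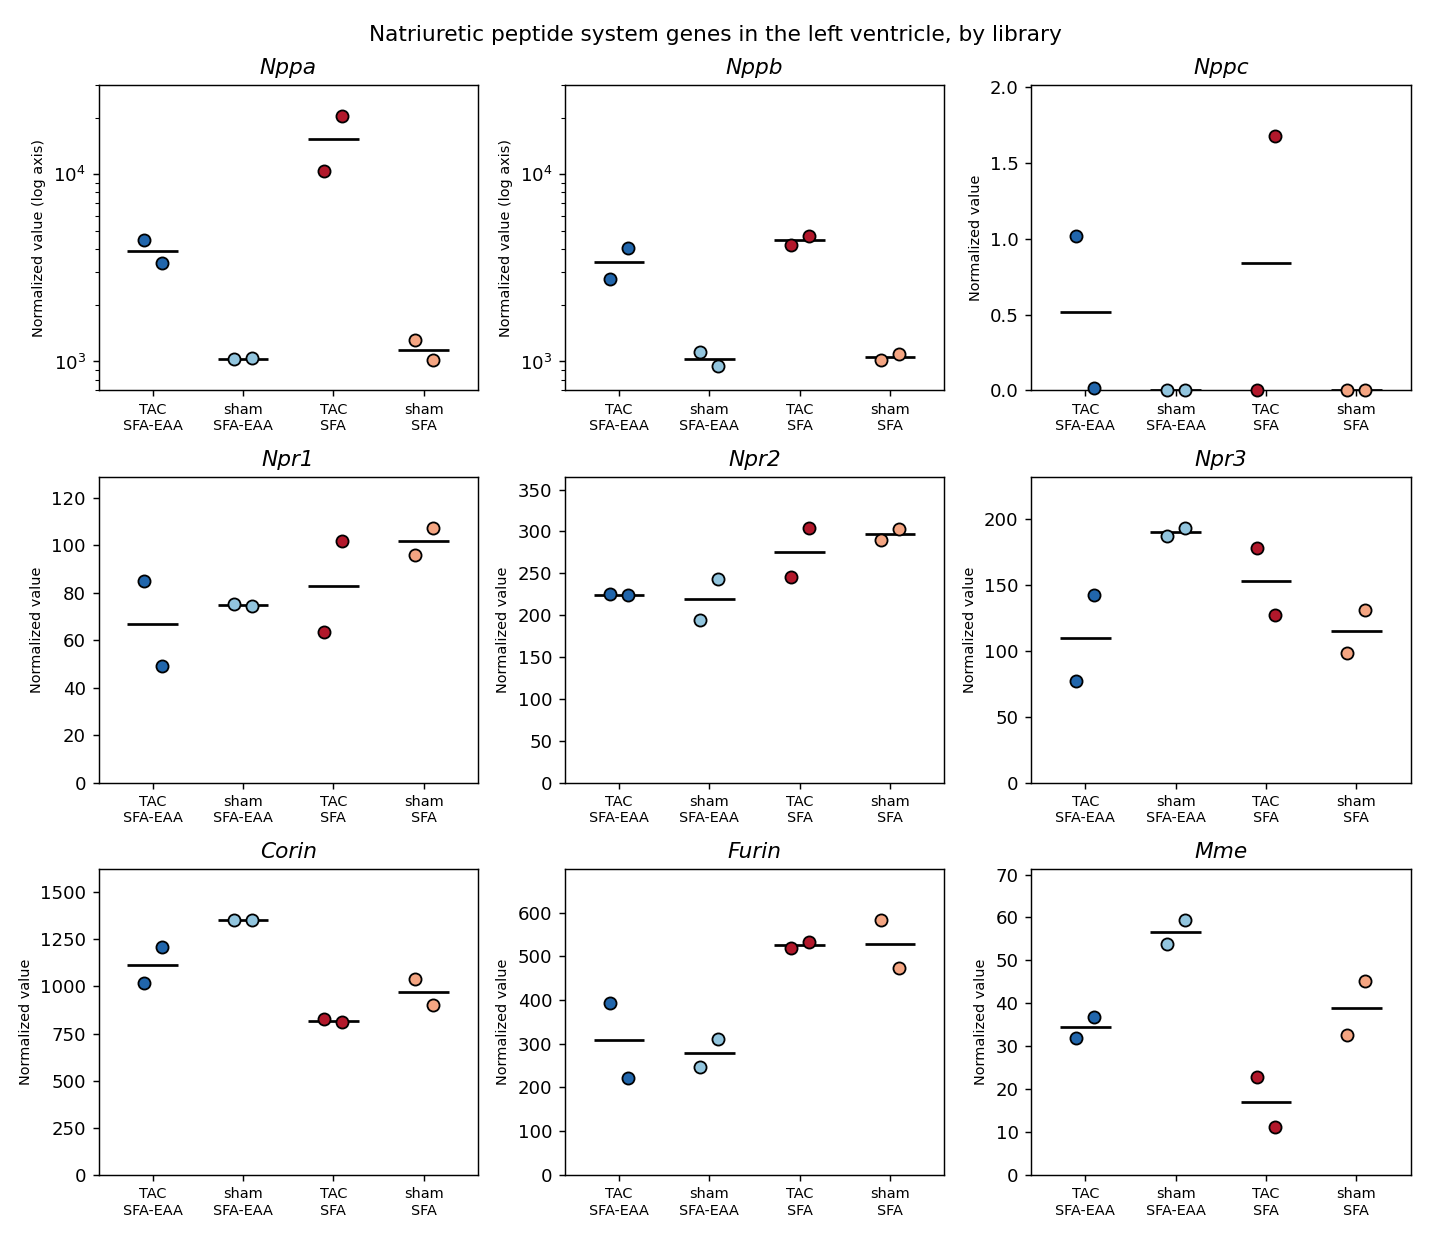
Normalized value of each of the 9 genes in each of the 8 libraries (points), with the group mean as a line and a log axis for Nppa and Nppb. The 4 TAC libraries lie above the 4 sham libraries for Nppa and Nppb, while the TAC and sham libraries overlap over both diets for the other 7 genes.

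Group means were compared on the scale of log2(normalized value + 1) with limma over 16432 genes, with 1 spread shared by the 8 libraries and a threshold of 0.05 on the Benjamini-Hochberg adjusted p (two-sided). On SFA, Nppa averaged 15376 ± 7113 normalized units after TAC and 1156 ± 203 after sham (SD, n = 2 each), a log2 fold change of 3.66 ± 0.28 (SE), or 12.7-fold (limma adjusted p = 0.00228). Nppb averaged 4441 ± 363 after TAC and 1062 ± 55.9 after sham, a log2 fold change of 2.06 ± 0.18 or 4.17-fold (limma adjusted p = 0.00228). These were 2 of the 9 genes, where 1.25% of all tested genes passed. As deposited, the TAC and sham libraries did not overlap for 4 of the 9 genes (Nppa and Nppb higher, Corin and Mme lower), against 47.4% of all tested genes. After GC correction Npr1 joined those that were lower.

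On SFA-EAA, Nppb averaged 3395 ± 883 normalized units after TAC and 1032 ± 127 after sham, and rose by 1.70 ± 0.18 on the log2 scale, or 3.24-fold (limma adjusted p = 0.039). It was 1 of only 2 genes called in that comparison, or 0.0122% of those tested. Nppa averaged 3890 ± 773 after TAC and 1035 ± 14.6 after sham, a log2 difference of 1.89 ± 0.28 or 3.72-fold that did not pass as deposited (limma adjusted p = 0.12). After GC correction, Nppa passed at 1.84 (limma adjusted p = 0.00667) and Nppb at 1.68 (limma adjusted p = 0.00125), among 0.25% of genes. The call for Nppb as deposited was lost without any single library, with limma adjusted p between 0.072 and 0.844, and at a pseudocount of 0.25 (0.0619), with no filter (0.0667), with quantile normalization (0.0914), with a replicate block (0.119) and in a fit of only the 4 libraries compared (0.623). On this diet, as deposited, 5 of the 8 genes other than Nppc had TAC and sham libraries that did not overlap (Nppa and Nppb higher, Npr3, Corin and Mme lower), against 36.6% of all tested genes. Nppc was left out of this count because it passed the filter only through TAC libraries. After GC correction Npr1 joined those that were lower.

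Over both diets, Nppa rose by 2.78 ± 0.20 on the log2 scale, or 6.86-fold (limma adjusted p = 0.000655), and Nppb by 1.88 ± 0.12, or 3.68-fold (limma adjusted p = 0.00056). They were 2 of the 9 genes, where 2.11% of all tested genes were called. As deposited, the same 2 genes were the only ones of the 9 whose 4 TAC libraries did not overlap the 4 sham libraries, against 6.48% of all tested genes. Both calls held without each single library in turn. Leaving out the 2 libraries with high Myl7 together, chosen after seeing the data, gave log2 fold changes of 2.62 for Nppa and 1.81 for Nppb, neither of which passed with 6 libraries (limma adjusted p = 0.37 and 0.429). On SFA alone the same omission left 3.35 for Nppa and 1.92 for Nppb, each with limma adjusted p = 0.843. The call for Nppa on SFA was also lost without replicate 2 of sham on SFA (limma adjusted p = 0.0644), and that for Nppb without replicate 2 of TAC on SFA (0.112) or either sham library on SFA (0.0578 and 0.0644). In a fit of only the 4 SFA libraries neither passed, at 0.135 for Nppa and 0.126 for Nppb.

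**Figure D2:**
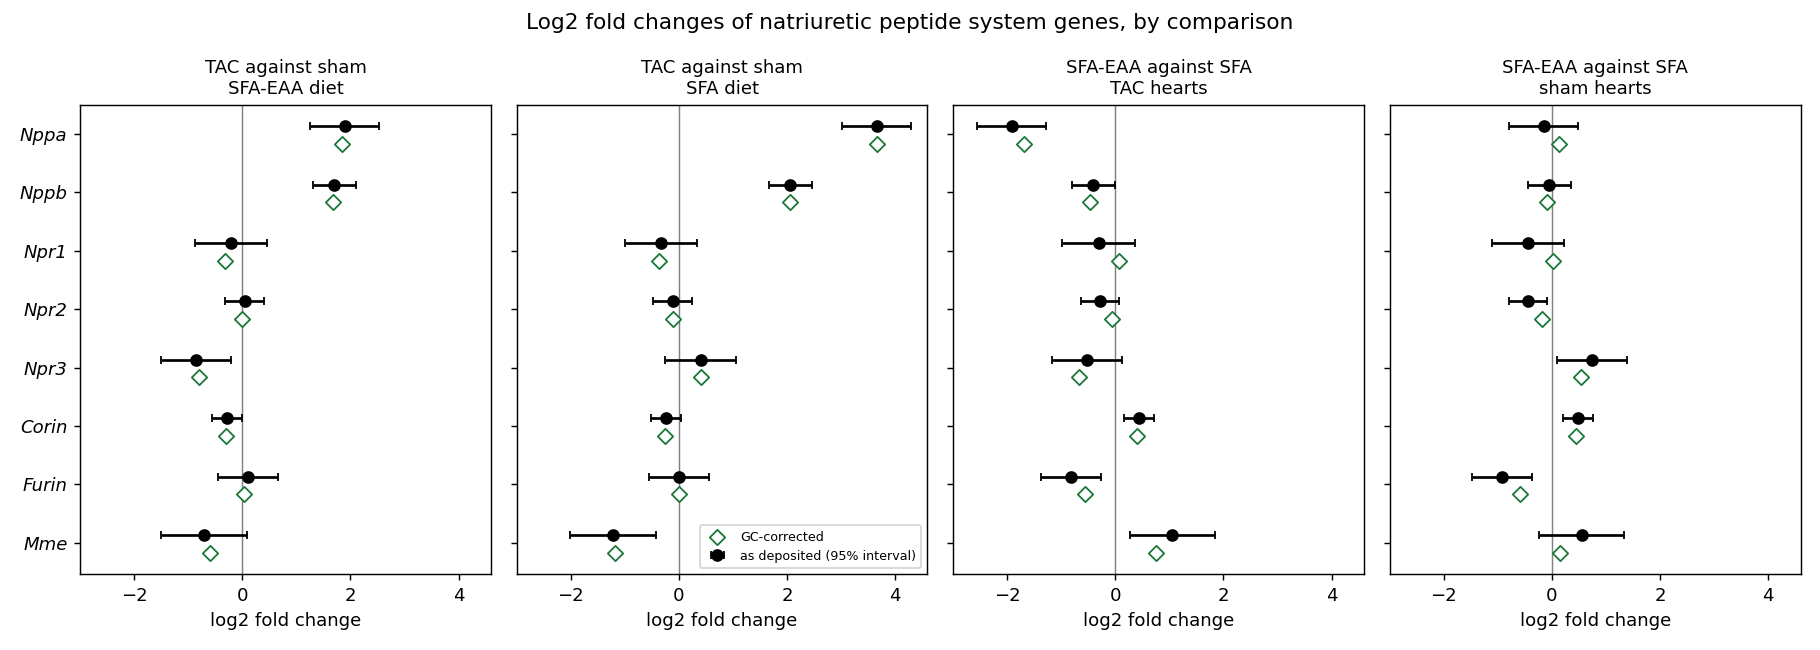
Log2 fold change with its 95% interval, not adjusted for the number of genes, in 4 comparisons of groups (black points and bars), with the GC-corrected value (green diamonds), for the 8 genes other than Nppc. Nppa and Nppb lie furthest to the right for TAC against sham, and Nppa furthest to the left, at -1.92, for SFA-EAA against SFA after TAC.

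Atrial tissue is a rich source of Nppa, so the atrial marker list was read beside it. Of its 10 genes, 9 were tested and Bmp10 was at 0 in every library. On SFA and over both diets 1 gene was called, lower after TAC, where 0.414% and 0.73% of all tested genes were called lower. The list summed to 890.3 and 806 normalized units in the TAC hearts on SFA-EAA and 1199.5 and 948 in the sham hearts on that diet. It summed to 564 and 2085 in the TAC hearts on SFA and 2708 and 1112 in the sham hearts on SFA. The TAC and sham sums overlapped on SFA, and on SFA-EAA both TAC sums were below both sham sums. Outside the libraries with high Myl7, Kcnj5 and Kcnj3 were the largest members of the sum. On SFA-EAA, Kcnj3 was lower in both TAC hearts, at 291 and 332 against 483 and 397. Myl7 overlapped there, at 3.07 and 1.28 after TAC and 43.0 and 2.71 after sham, as did Myl4, at 13.3 and 8.52 against 37.0 and 8.71. The members thus differed, and the sum does not stand for each of them. Replicate 2 of TAC on SFA, with the higher Nppa of its group, also had the higher atrial sum, and the part of the atrial genes in the Nppa values was not tested. In bulk tissue, fewer cells of a type and less RNA per cell cannot be told apart.

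Diet was compared in the hearts after TAC with Nppa as the gene of largest difference. Nppa averaged 3890 ± 773 normalized units on SFA-EAA and 15376 ± 7113 on SFA, a log2 difference of -1.92 ± 0.28, or 3.77-fold lower on SFA-EAA (95% interval of the log2 difference -2.55 to -1.28). As deposited this missed the threshold (limma adjusted p = 0.0605), and 0 of the 9 genes passed, where 0.0487% of all tested genes did. At an unadjusted limma p under 0.05 it was 5 of the 9, against 15.1% of all tested genes. It passed when genes with a mean under 5 were left out (limma adjusted p = 0.0298) and after GC correction, where the log2 difference was -1.69 (limma adjusted p = 0.00513) and 1.79% of genes passed. The difference was -1.43 without replicate 2 of TAC on SFA, -2.41 without replicate 1 of that group and -2.12 without replicate 1 of TAC on SFA-EAA. It did not pass in the first of these fits. It passed in the others, and the number of calls over all genes also moved with the library left out. Nppb averaged 3395 ± 883 on SFA-EAA and 4441 ± 363 on SFA, a log2 difference of -0.41 ± 0.18 (limma adjusted p = 0.321).

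In the sham hearts neither peptide gene differed by diet beyond its error. The log2 difference between SFA-EAA and SFA was -0.15 ± 0.28 for Nppa, with a 95% interval of -0.78 to 0.49, and -0.05 ± 0.18 for Nppb, with an interval of -0.44 to 0.35. After GC correction the value for Nppa was 0.14 and that for Nppb -0.09. No gene of the 16432 passed in this comparison (0%), and 2437 (14.8%) had an unadjusted limma p under 0.05, with 4 of the 9 among them.

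Whether the response to TAC depended on diet was asked with the interaction, the log2 fold change on SFA-EAA minus that on SFA. For Nppa it was -1.77 ± 0.40 (95% interval -2.67 to -0.87) and did not pass over all genes (limma adjusted p = 0.785). For Nppb it was -0.36 ± 0.25 (95% interval -0.93 to 0.20, limma adjusted p = 0.913). No gene passed in this comparison (0%), and 902 (5.49%) had an unadjusted limma p under 0.05, among them Nppa and Npr3.

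Both peptide genes together made up 0.116% and 0.117% of all normalized units in the TAC hearts on SFA-EAA and 0.0343% and 0.0324% in the sham hearts on that diet. On SFA the share was 0.268% and 0.489% in the TAC hearts and 0.0405% and 0.0355% in the sham hearts. The ratio of the normalized units of Nppa to those of Nppb, not taken per length, was 1.60 and 0.832 in the TAC hearts on SFA-EAA, against 0.914 and 1.11 in the sham hearts on that diet. On SFA it was 2.47 and 4.34 in the TAC hearts, against 1.27 and 0.92 in the sham hearts. The ratio was highest in both TAC hearts on SFA, and on SFA-EAA the TAC and sham ratios overlapped. The ratio was taken from the deposited values only, and GC content is 55.3% for Nppa and 47.9% for Nppb. The GC trend differed between the TAC libraries on SFA-EAA. The ratio is a description with no test.

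**Figure D3:**
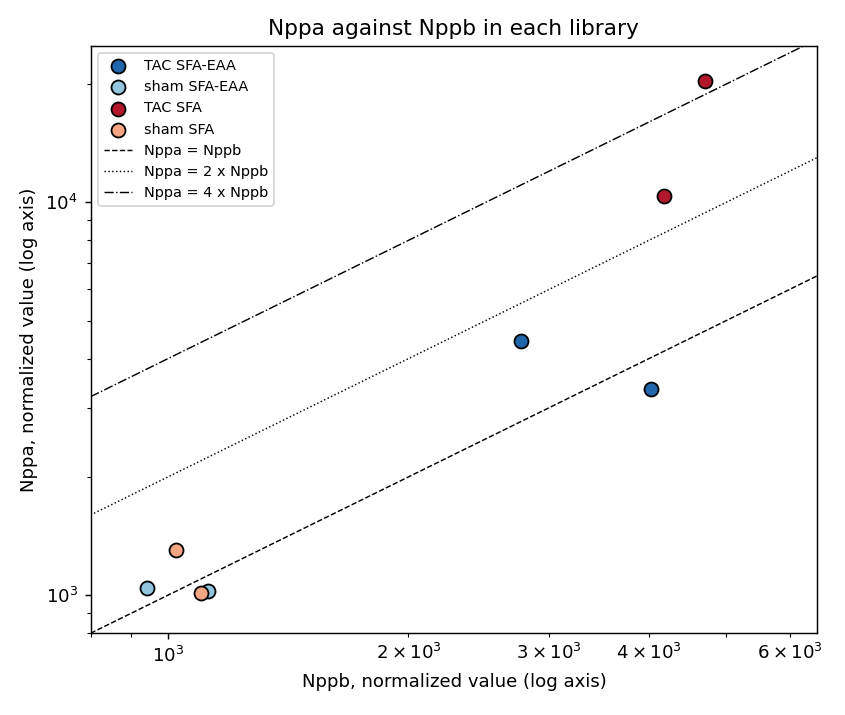
Nppa against Nppb in the 8 libraries, both in normalized units on log axes, 1 point per library. Dashed lines mark equal values and multiples of them. The 4 sham libraries lie between 942 and 1299.5 units on both axes, and the 2 TAC libraries on SFA lie highest in Nppa, at 10346 and 20406.

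Nppc, the CNP precursor gene (ENSMUSG00000026241, chromosome 1), was barely detected. It was listed at 1.02 and 0.0145 normalized units in the TAC hearts on SFA-EAA and at 0 and 1.68 in those on SFA. It was listed at 0 in all 4 sham libraries, so no fold change is given.

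Npr1, the ANP and BNP receptor (ENSMUSG00000027931, chromosome 3), passed in no comparison. Its level was 85.1 and 49.0 normalized units in the TAC hearts on SFA-EAA and 75.1 and 74.3 in the sham hearts on that diet, with the sham values inside the TAC range. On SFA it was 63.4 and 102 in the TAC hearts and 96.2 and 107 in the sham hearts, with overlap. After GC correction every TAC library of Npr1 lay below every sham library. The log2 values were 5.84 to 6.40 after TAC and 6.41 to 6.60 after sham, with no share over all genes taken. The log2 difference for TAC over both diets was -0.27 ± 0.21, with a 95% interval of -0.74 to 0.20 (limma adjusted p = 0.607). In the sham hearts it was lower on SFA-EAA than on SFA by a log2 difference of -0.44 ± 0.30 (limma adjusted p = 0.507), which was 0.02 after GC correction. Npr1 has the highest GC content of the 9 genes, 57.4%, against a median of 49.6% over the tested genes.

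Npr2, the CNP receptor (ENSMUSG00000028469, chromosome 4), was the most abundant of the receptors per length of transcript. It had 225 and 223 normalized units in the TAC hearts on SFA-EAA and 194 and 244 in the sham hearts on that diet. On SFA it had 246 and 304 in the TAC hearts and 289.9 and 303 in the sham hearts. TAC and sham libraries overlapped on each diet, and the log2 difference over both was -0.04 ± 0.11, with a 95% interval of -0.29 to 0.22 (limma adjusted p = 0.925). Its level was lower on SFA-EAA in the sham hearts, with a log2 difference of -0.44 ± 0.16 as deposited (limma adjusted p = 0.278) and -0.18 after GC correction.

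Npr3, the clearance receptor (ENSMUSG00000022206, chromosome 15), had TAC differences of opposite sign on the 2 diets, none of which passed. On SFA-EAA it had 77.1 and 142 normalized units in the TAC hearts, both below the 188 and 193 of the sham hearts. On the SFA diet it had 179 and 128 in the TAC hearts and 98.7 and 131 in the sham hearts, which overlap. The log2 difference for TAC was -0.86 ± 0.29 on SFA-EAA (limma adjusted p = 0.484) and 0.40 ± 0.29 on SFA (limma adjusted p = 0.637). The interaction was -1.26 ± 0.41, with a 95% interval of -2.18 to -0.34 and a limma adjusted p of 0.862. Among the sham hearts it was higher on SFA-EAA than on SFA by 0.74 ± 0.29 on the log2 scale (limma adjusted p = 0.307), which was 0.53 after GC correction (0.433). Npr3 is also a marker of the endocardium, the lining of the heart chambers. The other 7 endocardial markers summed to 549.9 and 442 normalized units in the TAC hearts on SFA-EAA and 579.8 and 664 in the sham hearts on that diet. On SFA they summed to 585.8 and 861 in the TAC hearts and 644 and 849.8 in the sham hearts. None of those 7 was called in any comparison, where 0% to 2.11% of all tested genes were. None was at 0 in every library, and their part in the values of Npr3 was not tested.

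The balance of clearance to signalling receptor, taken per kilobase of exon as Npr3 over Npr1, was 0.625 and 2.01 in the TAC hearts on SFA-EAA and 1.73 and 1.80 in the sham hearts on that diet. On SFA it was 1.94 and 0.865 in the TAC hearts and 0.709 and 0.845 in the sham hearts. The libraries of the 2 TAC groups overlapped, and no order of those groups can be read from this ratio. The ratio depends on the exon length taken for Npr3, which is 6927 bases in the deposited table and 9389 in the GENCODE M21 annotation. It was taken from the deposited values only, and GC content is 44.0% for Npr3 and 57.4% for Npr1. In the sham hearts, GC correction moved the log2 diet difference from 0.74 to 0.53 for Npr3 and from -0.44 to 0.02 for Npr1. The order of the sham groups in this ratio was not tested.

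Corin, a transmembrane protease that cuts the ANP precursor (ENSMUSG00000005220, chromosome 5), had slightly lower values after TAC on each diet. It had 1019.9 and 1210.1 normalized units in the TAC hearts on SFA-EAA and 1351 and 1352 in the sham hearts on that diet. On SFA it had 829 and 809 in the TAC hearts and 1038 and 902 in the sham hearts. The TAC and sham libraries did not overlap on either diet. The log2 difference over both diets was -0.26 ± 0.09 as deposited (limma adjusted p = 0.187) and -0.28 after GC correction, which passed (limma adjusted p = 0.0397). With diet, Corin was higher on SFA-EAA than on SFA by 0.44 ± 0.12 on the log2 scale after TAC (limma adjusted p = 0.172) and by 0.48 ± 0.12 in the sham hearts (0.267). The first of these passed without replicate 1 of TAC on SFA-EAA. The second passed without either TAC library on SFA-EAA, which changes the shared spread and not the difference itself. The number of calls over all genes also moved with the library left out, so these passes are not particular to Corin.

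Furin, the proprotein convertase that cuts the BNP precursor among others (ENSMUSG00000030530, chromosome 7), had libraries that separated by diet and overlapped between operations, with no call. It had 394 and 222 normalized units in the TAC hearts on SFA-EAA and 246 and 310.1 in the sham hearts on that diet. On SFA it had 519.9 and 532 in the TAC hearts and 583 and 474 in the sham hearts. All 4 libraries on SFA-EAA lay below all 4 on SFA, with no share over all genes taken for this. Within an operation, 42.8% of all tested genes separated by diet after TAC and 55.2% in the sham hearts. The log2 difference between the diets was -0.83 ± 0.25 after TAC (limma adjusted p = 0.187) and -0.93 ± 0.25 in the sham hearts (limma adjusted p = 0.267). After GC correction the differences were -0.56 (limma adjusted p = 0.0756) and -0.59 (0.191), and the gene is GC-rich, at 55.9%. It passed after TAC without replicate 1 of TAC on SFA-EAA, the SFA-EAA library with the GC trend of the SFA libraries. The difference in the sham hearts passed without either TAC library on SFA-EAA, which changes the shared spread and not the difference itself. The number of calls over all genes also moved with the library left out, so these passes are not particular to Furin. For TAC over both diets the log2 difference was 0.05 ± 0.17, with a 95% interval of -0.34 to 0.44.

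Mme, the gene of neprilysin (ENSMUSG00000027820, chromosome 3), had lower values after TAC on each diet. It had 31.8 and 36.9 normalized units in the TAC hearts on SFA-EAA and 53.9 and 59.4 in the sham hearts on that diet. On the SFA diet it had 22.8 and 11.1 in the TAC hearts and 32.6 and 45.2 in the sham hearts. As deposited, TAC and sham libraries did not overlap within a diet, although the TAC hearts on SFA-EAA overlapped the sham hearts on SFA. After GC correction every TAC library of Mme lay below every sham library. The log2 values were 3.84 to 5.14 after TAC and 5.23 to 5.75 after sham, with no share over all genes taken. The log2 difference over both diets was -0.96 ± 0.25 (limma adjusted p = 0.0958), and -0.89 after GC correction, which passed (limma adjusted p = 0.0398). Corin, Mme, Nppa and Nppb were thus the 4 of the 9 genes called after GC correction in that comparison, where 6.15% of genes were called. By diet the difference was -0.71 ± 0.35 on SFA-EAA (limma adjusted p = 0.618) and -1.21 ± 0.35 on SFA (0.154). On SFA the corrected difference was -1.19 (limma adjusted p = 0.0585), and Nppa and Nppb were the 2 called, where 5% of genes were called. Between the diets, Mme had a log2 difference of 1.06 ± 0.35 after TAC (limma adjusted p = 0.226) and 0.55 ± 0.35 in the sham hearts (0.48), SFA-EAA being higher in each, and after GC correction 0.74 and 0.15.

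Across diets, as deposited, 6 of the 9 genes had SFA-EAA and SFA libraries that did not overlap after TAC (Nppa, Nppb, Npr2 and Furin lower on SFA-EAA, Corin and Mme higher), against 42.8% of all tested genes. In the sham hearts it was also 6 of the 9 (Npr1, Npr2 and Furin lower, Npr3, Corin and Mme higher), against 55.2% of all tested genes. The GC content of the genes counted as lower on SFA-EAA in the TAC or the sham hearts was 55.3% for Nppa, 47.9% for Nppb, 57.4% for Npr1, 55.0% for Npr2 and 55.9% for Furin. That of the genes counted as higher was 48.4% for Corin, 44.0% for Npr3 and 38.0% for Mme. After TAC the log2 difference of Nppa was -1.92 as deposited and -1.69 after GC correction, and that of Corin was 0.44 as deposited and 0.40 after it. Diet and the GC trend of the libraries moved together apart from replicate 1 of TAC on SFA-EAA. The overlaps above changed after GC correction. After TAC, Npr2 overlapped, at log2 values of 7.72 and 8.09 on SFA-EAA and 7.86 and 8.10 on SFA. Npr3 no longer did, at 6.35 and 6.98 against 7.55 and 7.14. Among the sham hearts, Npr1 overlapped, at 6.60 and 6.41 on SFA-EAA and 6.42 and 6.56 on SFA. So did Mme, at 5.48 and 5.75 against 5.23 and 5.69. No share over all genes was taken after the correction.

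Levels of different genes were compared per kilobase of exon, as the mean over the 8 libraries. Nppa led at 6202 normalized units per kilobase and Nppb followed at 3178, with overlapping ranges over the libraries. Corin was the third at 197, ahead of Npr2 at 54.3 and Furin at 44.7, whose ranges overlapped each other. Npr3 at 20.5 and Npr1 at 17.1 also overlapped, as did the lowest library of Furin (24.2) and the highest of Npr3 (27.9), and Mme at 3.18 and Nppc at 0.325 were lowest. The ranges of the 2 lowest genes overlapped, with Mme between 0.96 and 5.14 and Nppc between 0 and 1.61. In the sham hearts Nppa and Nppb were at nearly the same mean level per kilobase. On SFA-EAA it was 1197 for Nppa and 1321 for Nppb, and on SFA 1337 for Nppa and 1359.5 for Nppb.

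**Figure D4:**
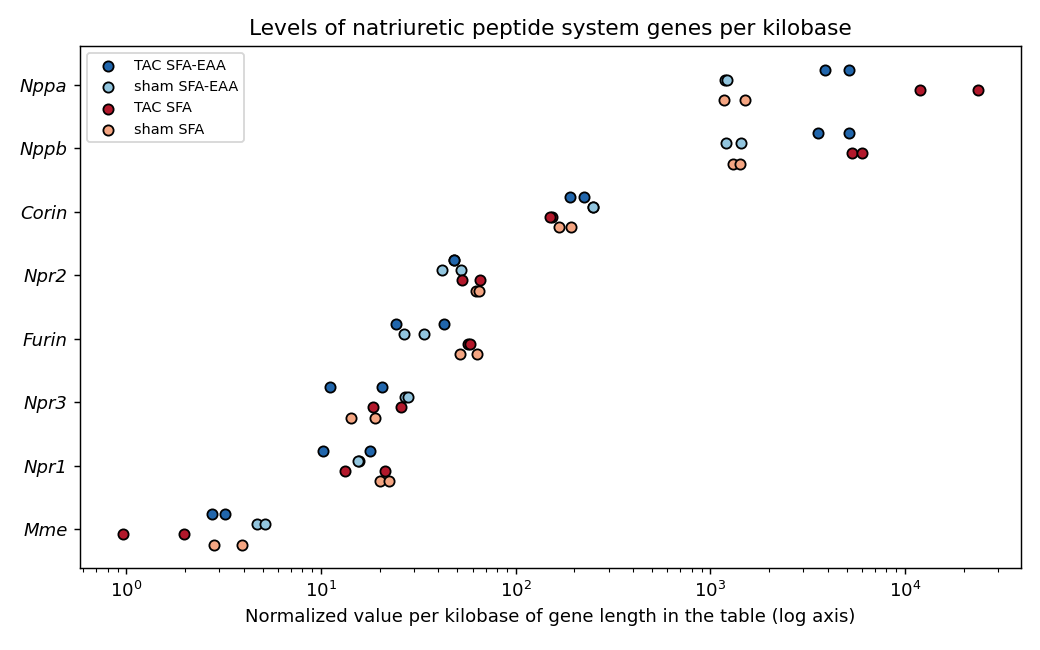
Level per kilobase of the exon length given in the deposited table, for the 8 genes other than Nppc (normalized units per kilobase, log axis), with 1 point per library, ordered by the mean over the 8 libraries. The peptide genes Nppa and Nppb stand above all others in every library, with Corin the third and the receptors below it.

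Of 12 other genes within 100 kilobases of Nppa or Nppb on chromosome 4, 9 were tested. None was called in any comparison, where 0% to 2.11% of all tested genes were called as deposited. With 9 genes, no call is close to that share. For TAC over both diets 1 of the 9 had an unadjusted limma p under 0.05, against 15.3% of all tested genes. Their median log2 fold change was 0.06, against 0.01 over all tested genes. Mfn2, a mitochondrial fusion gene, had a log2 difference of -0.06 and Agtrap, an angiotensin receptor binding protein, one of 0.06 over both diets. Clcn6, which lies past the end of Nppa on the minus strand, had one of -0.05. Gm13054, an antisense gene that overlaps Nppa, had 1.04 and 0.0838 normalized units in the TAC hearts on SFA-EAA and 1.15 and 0.0151 in the sham hearts on that diet. On SFA it had 1.87 and 5.78 in the TAC hearts and was listed at 0 in both sham hearts. The library kit marks strand, but the sources used here do not state whether the counting used it. The few units of Gm13054 therefore cannot be told apart from reads of Nppa.

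**Figure D5:**
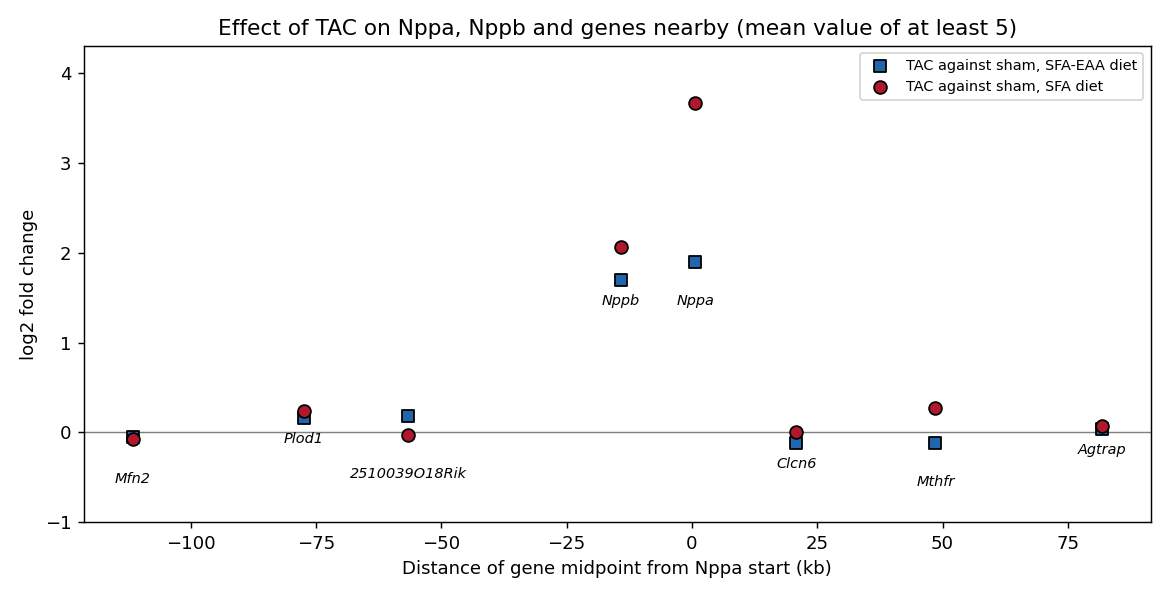
Log2 fold change for TAC against sham on SFA-EAA (blue squares) and on SFA (red circles) of Nppa, Nppb and the nearby genes with a mean of at least 5 normalized units, against the distance of the gene's midpoint from the start of Nppa in kilobases. Nppb lies at 1.70 on SFA-EAA and 2.06 on SFA, and Nppa at 1.89 on SFA-EAA and 3.66 on SFA, above all the neighbours shown.

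Downstream of the receptors, 22 of 23 listed genes for the production, effectors and hydrolysis of cGMP were tested. None was called in any of the 6 comparisons as deposited, where 0% to 2.11% of all tested genes were. For TAC over both diets 5 of the 22 had an unadjusted limma p under 0.05, against 15.3% of all tested genes. Their median log2 fold change for TAC over both diets was 0.08, with 12 above and 10 below 0, against a median of 0.01 over all tested genes. The gene with the smallest p there was Rgs2, a regulator of G protein signalling that cGMP-dependent kinase activates. Rgs2 had 106 and 121 normalized units in the TAC hearts on SFA-EAA and 212 and 244 in the sham hearts on that diet. On SFA it had 144 and 64.0 in the TAC hearts and 211 and 166 in the sham hearts. Every TAC library of Rgs2 stood below every sham library, as did those of 2.75% of all tested genes. Its log2 difference was -0.98 ± 0.23 (limma adjusted p = 0.0687) and passed after GC correction at -0.94 (0.0128). Rgs2 was 1 of the 22 called after that correction, where 6.15% of all genes were called. Next came Pln, the calcium pump inhibitor phospholamban, at -0.39 ± 0.12 (limma adjusted p = 0.149), Pde3a, a phosphodiesterase inhibited by cGMP, at -0.28 ± 0.09 (0.181), and Gucy1a3, a subunit of soluble guanylate cyclase, at -0.34 ± 0.11 (0.188).

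Of 12 further genes for processing and clearance, 7 were tested and none was called in any comparison, where 0% to 2.11% of all tested genes were. Their median log2 fold change was 0.05 for TAC over both diets. There 0 of the 7 had an unadjusted limma p under 0.05, against 15.3% of all tested genes. Those with the smallest p were Pcsk5, a convertase related to furin, at 0.71 ± 0.33 (limma adjusted p = 0.357), Dpp4, a dipeptidyl peptidase, at -0.65 ± 0.36 (0.45), Ece1, endothelin converting enzyme, at -0.18 ± 0.13 (0.574), and Ide, insulin degrading enzyme, at 0.11 ± 0.11 (0.73).

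Transcription factors known to act on the 2 promoters were not called as deposited in any comparison, where 0% to 2.11% of all tested genes were. Of the 23 listed, 22 were tested, with a median log2 fold change of 0.02 for TAC over both diets. At an unadjusted limma p under 0.05 it was 5 of the 22 there, against 15.3% of all tested genes. Tead1, a factor that binds MCAT elements, had 981 and 1179 normalized units in the TAC hearts on SFA-EAA and 944 and 934 in the sham hearts on that diet. On the SFA diet it had 1162 and 1277 in the TAC hearts and 846 and 846 in the sham hearts. All 4 TAC libraries of Tead1 lay above all 4 sham libraries, as did those of 3.73% of all tested genes. The log2 difference of 0.36 ± 0.09 over both diets passed only after GC correction, at 0.35 (limma adjusted p = 0.0084, against 0.0741 as deposited). Tead1 was 1 of the 22 called after that correction, where 6.15% of all genes were called. On SFA alone 4 of the 22 factors passed after GC correction, against 5% of all genes, Tead1 higher at 0.51 (limma adjusted p = 0.00855) and Mef2a, Tbx5 and Gata6 lower at -0.40 (0.0474), -1.29 (0.028) and -0.57 (0.0211).

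The genes whose 8 values were most like those of each peptide gene and of Npr3 were ranked by the root mean square difference of their centred log2 values over the 8 libraries, among 11772 genes with a mean of at least 5 normalized units and a symbol other than a provisional one. Closest to Nppa were Col12a1, a collagen, at 0.328, Cilp, an extracellular matrix protein, at 0.378 and Star, a steroidogenic cholesterol carrier, at 0.447. Closest to Nppb were Xirp2, which binds actin at intercalated discs, at 0.262, Tnfrsf12a, the receptor of TWEAK, at 0.281 and Loxl2, a collagen crosslinking enzyme, at 0.3. Nppa and Nppb, which were left out of the ranking, differed from each other by 0.776 on this measure. Closest to Npr3 were Sft2d3, a vesicle transport gene, at 0.154, Itm2a, an integral membrane protein, at 0.155 and Smc2, a condensin subunit, at 0.165. The shared libraries make these values a description with no test.

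Fibroblast markers, read beside the matrix genes near Nppa, summed to 10485 and 8196 normalized units in the TAC hearts on SFA-EAA and 10420.5 and 10163 in the sham hearts on that diet. On SFA they summed to 12243 and 20538 in the TAC hearts and 12825 and 11850.0 in the sham hearts. Of the 10 fibroblast genes, 2 were called higher after TAC on SFA and over both diets, where 0.834% and 1.38% of all tested genes were. After TAC, 1 was called lower on SFA-EAA than on SFA, where 0.0365% of all tested genes were. The highest fibroblast sum and the highest Nppa were both in replicate 2 of TAC on SFA, and the part of the fibroblast genes in the Nppa values was not tested. The other lists read were endothelial, smooth muscle and pericyte, macrophage, epicardial and mesothelial, and Schwann cell genes. Over both diets 1 of 10 macrophage genes was called higher after TAC, and 1 of 10 smooth muscle and pericyte genes and 1 of 6 Schwann cell genes lower, with no endothelial or epicardial and mesothelial gene called there. Of all tested genes 1.38% were called higher and 0.73% lower in that comparison.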

How the data were processed

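The 8 libraries were polyA RNA-seq of mouse left ventricle made with a stranded kit, per the labels' protocols. The deposited table holds a normalized signal per gene that the authors made with STAR 2.5, GRCm38 and edgeR, per the submitters' processing notes. How reads were counted, with which gene annotation and strand setting, and what was filtered is not given in the sources used here. The values are not whole, and between 44.5% and 92.7% of those under 20 lay within 0.1 of a whole multiple of the library's most common low value, so a count model was not used and depth is unknown.

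Values were tested as log2(value + 1) with limma 3.58.1 (trend, R 4.3.3), 1 mean per group over the 8 libraries, on the 16432 genes that reached 1 in 2 or more libraries. The 6 comparisons were two-sided with Benjamini-Hochberg adjustment over all genes and a threshold of 0.05. Intervals are limma's own, unadjusted. Each library was also corrected for GC content with a loess curve (span 0.3) fitted on genes with a mean of at least 50, with the GC content from the longest GENCODE transcript. The fit was checked on simulated whole counts with no GC trend, so the check does not cover the GC trend of these libraries. Promoter windows came from RefSeq (GRCm38.p6). All 9 genes are described, and from each further list the called genes or the 4 with the smallest p. Genes, lists and tests were chosen with earlier results of these data known. Alternatives were another pseudocount, filters, scalings, a replicate block, GC correction, fewer groups and leaving out libraries.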

Additional observations from a re-analysis of the deposited data

How the results depend on the processing

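Genes called for TAC against sham on SFA-EAA were 2 as deposited. They were 0 with a pseudocount of 0.25, no filter, quantile normalization, the replicate block, only the 4 libraries compared, or any single library left out (0 to 0). They were 5 with a mean of at least 5, 41 with GC correction and 25 with the replicate block and GC correction. On SFA, 205 became 323 with a mean of at least 5, 96 with the replicate block, 819 with GC correction, 675 with the block and GC correction, 0 with only the 4 libraries, and 0 to 385 with each library left out in turn. Over both diets, 347 became 56 with no filter, 147 with the block, 1009 with GC correction, 804 with both, and 24 to 563 with each library left out. Leaving out the 2 libraries with the highest Myl7, chosen after seeing the data, gave 0 calls on SFA and 0 over both diets. For SFA-EAA against SFA after TAC, 8 became 0 with a pseudocount of 0.25, no filter, the block or only the 4 libraries. That count was 77 with a mean of at least 5, 15 with median-of-ratios scaling, 293 with GC correction, 177 with the block and GC correction, and 0 to 1395 with each library left out, the highest without replicate 1 of TAC on SFA-EAA. In the sham hearts 0 became 5 with GC correction and 0 to 466 with each library left out. For the interaction 0 became 3 with the block and GC correction. The cause of these shifts was not tested.

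Replicate numbers gave no sign of pairing the samples, with correlations of same-numbered deviations of -0.18 to 0.02 over 12420 genes. With 2 libraries a group, differences between single libraries may hide a pairing, so it is not excluded. With the replicate block Nppb on SFA-EAA lost its call (limma adjusted p = 0.119). With the block added to the GC correction, Corin and Mme over both diets no longer passed (limma adjusted p = 0.0668 and 0.0603).

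With 2 libraries a group and no depth, small differences in the receptors and proteases cannot be resolved. No called value changed sign under any alternative. Signs of uncalled log2 differences turned as follows. For TAC on SFA, Furin (0.00) was -0.0083 with quantile normalization, -0.011 with median-of-ratios scaling and -0.0062 with GC correction, with or without the block. For TAC on SFA-EAA, Npr2 (0.04) was -0.0107 with GC correction, with or without the block. Between diets after TAC, Npr1 (-0.31) was 0.0658 with GC correction, and in the sham hearts Nppa (-0.15) was 0.137 and Npr1 (-0.44) was 0.0182, with or without the block. The interaction of Furin was -0.0341 without the 2 libraries high in Myl7. Leaving out each library gave these ranges where a sign turned. For TAC on SFA-EAA they were -0.60 to 0.19 for Npr1, -0.12 to 0.21 for Npr2 and -0.31 to 0.51 for Furin. For TAC on SFA they were -0.67 to 0.0046 for Npr1, -0.27 to 0.0371 for Npr2 and -0.15 to 0.15 for Furin. Over both diets they were -0.12 to 0.045 for Npr2 and -0.16 to 0.26 for Furin. After TAC the diet difference of Npr1 ran between -0.70 and 0.0809, and in the sham hearts that of Nppa ran between -0.33 and 0.0312 and that of Nppb between -0.17 and 0.0801. The interaction ran between -0.27 and 0.52 for Npr1, -0.0036 and 0.32 for Npr2, -0.17 and 0.0812 for Corin, and -0.31 and 0.51 for Furin.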
